A study of Mus musculus with 6 samples.

Results

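The mitochondrially encoded transcripts of mouse CD4 T cells were followed across samples labelled Prmt5 KO and WT. The members were chosen by name: all 37 rows of the deposited expression table whose symbol, looked up from the gene identifier, begins with mt-. They make up the whole annotated gene set of the mouse mitochondrial genome, with 13 messages, 2 rRNAs and 22 tRNAs, among 54532 gene rows in all. Of these, 28 lie on the plus strand of the reference sequence and 9 on the minus strand, namely mt-Nd6 and 8 tRNAs. Coordinates are those of GRCm38.

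The comparison set 3 KO against 3 WT libraries. The KO libraries (KO 1, KO 4 and KO 5) carry the genotype label iCD4-PRMT5 delta/delta, and the WT libraries (WT 1, WT 2 and WT 4) the label iCD4-PRMT5fl/fl, so the controls carry floxed alleles of the gene. Both groups share the C57BL/6 background, the prefix iCD4, which the labels do not explain and which leaves the driver of the deletion unnamed, and total RNA from CD4 T cells of spleen and lymph nodes, depleted of rRNA before stranded library preparation. All titles contain the word rest, while the treatment field of every sample reads anti-CD3/CD28 for 48 h, so the labels conflict on the activation state. The expression table also holds 6 columns named act, not used here, beside the 6 named rest. The ages and numbers of the mice are not stated in the labels.

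The mitochondrial genome is a small circle that is transcribed from both strands into long precursors. tRNAs lie between most of the messages and rRNAs, and their removal by RNase P and the nuclease ELAC2 frees the neighbouring RNAs. The messages encode subunits of respiratory complexes I, III and IV and of ATP synthase, and the other subunits of these complexes come from nuclear genes. Activated T cells are known to enlarge their mitochondrial content, which makes these RNAs of interest in this cell type.

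Values are robust FPM, that is fragments per gene scaled by the authors with robust size factors and rounded to 1 decimal. The sequencing depth is unknown, and the column sums over gene rows ran from 857334 to 954014. Prmt5, the targeted gene, measured 24.4, 23.8 and 21.5 in KO 1, KO 4 and KO 5, against 34.9, 41.0 and 43.9 in WT 1, WT 2 and WT 4. The KO libraries were thus lower without overlap, for a value that covers the whole gene, undeleted exons included. The 8 markers of CD4 T cells, Cd3e and Cd4 among them, were all detected, and their sum lay between 2420 and 3056. A code in the sample descriptions places KO 1, WT 1 and WT 2 in library series 22, and KO 4, KO 5 and WT 4 in series 24. WT 1 stood apart: at 1428 olfactory and vomeronasal receptor genes, which T cells are not expected to transcribe, it had 0.301 FPM per kb, against 0.0144 to 0.0847 in the other 5 libraries.

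The levels differed widely along the mitochondrial genome and kept nearly the same order in every library. Per kb of annotated length, mt-Co1 (ENSMUSG00000064351.1, chrM:5328-6872), the catalytic subunit of complex IV, stood first with 5001 ± 432 FPM per kb (SD over the 6 libraries). It was followed by the complex I subunit mt-Nd1 (ENSMUSG00000064341.1, chrM:2751-3707) with 796 ± 164 FPM per kb and by mt-Cytb (ENSMUSG00000064370.1, chrM:14145-15288), cytochrome b of complex III, with 692 ± 133. Each of these held its place in all 6 libraries, so mt-Nd1 ranked above mt-Cytb every time although the SDs of their levels overlap. The complex I messages mt-Nd4, mt-Nd2 and mt-Nd5 came next, at 183 ± 38.1, 151 ± 45.3 and 135 ± 31.7 FPM per kb, again in this order in each library. In all, 9 of the 13 messages kept 1 rank throughout, while mt-Co3 and mt-Nd6 exchanged the 7th and 8th places, and mt-Nd3 and mt-Atp8 the 11th and 12th.

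At the low end stood mostly messages of the same precursor as mt-Co1. mt-Co3 measured 30.4 ± 2.49, mt-Co2 13.6 ± 1.52, mt-Atp6 7.88 ± 1.56, mt-Nd3 3.93 ± 0.742, mt-Atp8 2.53 ± 1.43 and mt-Nd4l 0.224 ± 0.174 FPM per kb. mt-Co2 and mt-Co3 encode the 2 further mitochondrial subunits of complex IV, and mt-Atp6 and mt-Atp8 subunits of ATP synthase. These 6 low messages are neighbours, between mt-Co1 and mt-Nd4. Outside that stretch, mt-Nd6 on the minus strand was low too, at 20.9 ± 10.4 FPM per kb, between the means of mt-Co3 and mt-Co2.

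**Figure D1:**
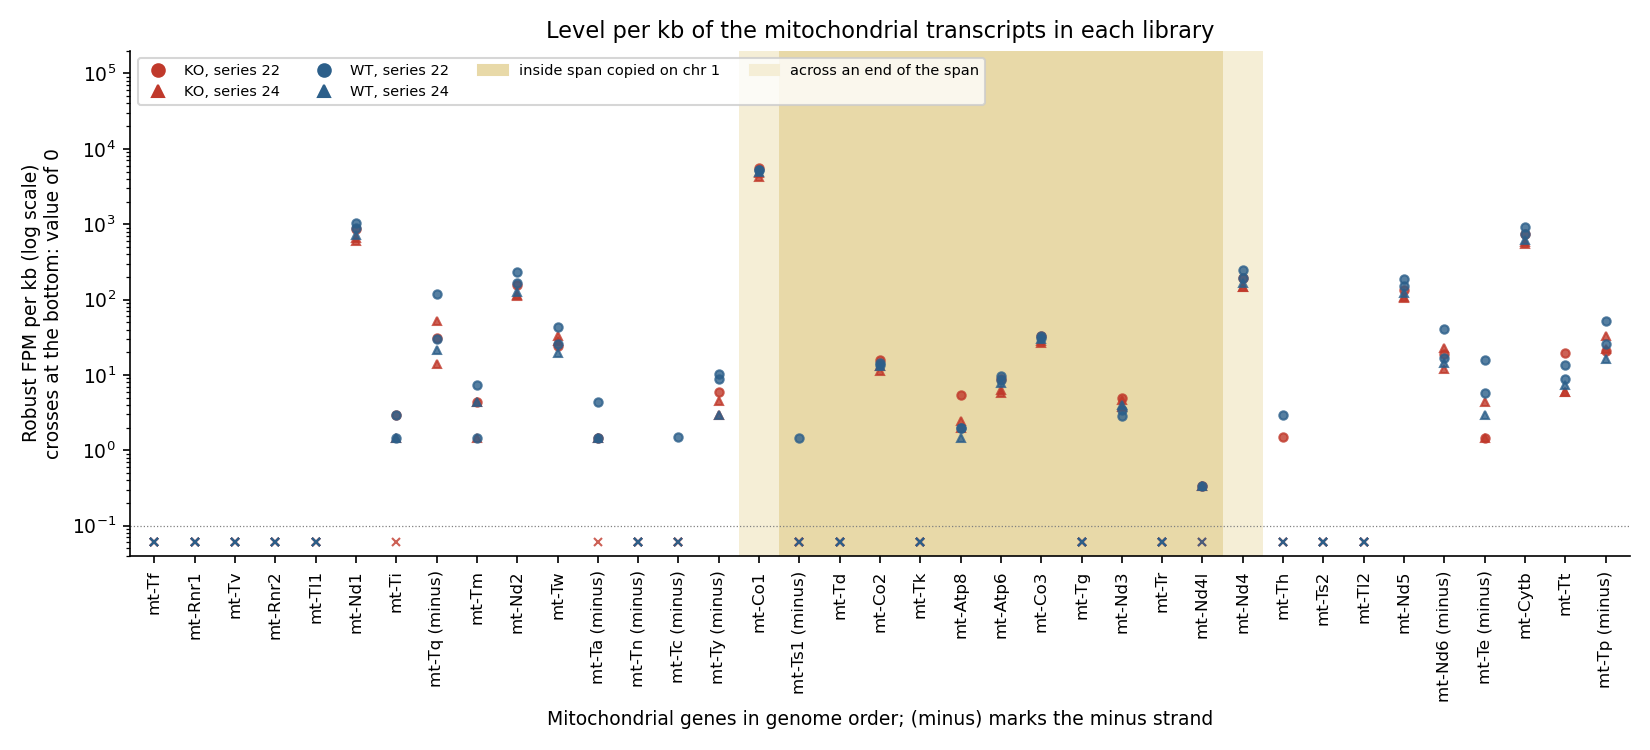
Robust FPM per kb (log axis) of the 37 mitochondrial genes in genome order, 1 point per library, with red for KO, blue for WT, circles for series 22 and triangles for series 24; crosses mark a value of 0. The 6 messages inside the shaded span, of which all but mt-Atp8 have an annotated copy on chromosome 1, lie between 0.224 and 30.4 on average, against 20.9 to 796 for the 5 messages outside it.

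The same stretch has annotated copies in the nuclear genome. Of the transcripts annotated in GRCm38 outside the mitochondrial genome, 7 pseudogenes on the minus strand of chromosome 1, from 24611535 to 24616197, follow the order of the mitochondrial genes from base 6381 to base 11043 of chromosome M in 1 inverted run of 4663 bases, with positions that match within 1 base. Gm28661, Gm10925, Gm28437 and Gm10222 had 0 substitutions over the aligned bases of mt-Co2, mt-Atp6, mt-Co3 and mt-Nd4l, and Gm28439 had 0 over the 876 aligned bases of mt-Nd4. Gm29216 had 6 over the 492 aligned bases of mt-Co1. Gm28438 differed from mt-Nd3 by T3C alone, counted from base 1 of the message. The place of mt-Atp8 in this run is 24614609 to 24614812, where no copy of it is annotated, so that none could be compared.

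The first bases of mt-Nd3 (chrM:9459-9518, plus strand) and of its copy Gm28438 (chr1:24613060-24613119, minus strand) are shown because they hold this single difference, which the capitals mark. Sequences are from GENCODE M21 transcripts on GRCm38.
mt-Nd3: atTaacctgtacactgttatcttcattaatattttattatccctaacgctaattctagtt
Gm28438: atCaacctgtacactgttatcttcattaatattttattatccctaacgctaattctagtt
A fragment from the rest of this stretch reads the same in both places.

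Most of the low messages recur nearly whole, letter for letter, elsewhere in the annotation. Of all stretches of 50 bases, 100% in mt-Co2, 99.9% in mt-Co3, 99.5% in mt-Atp6, 98.8% in mt-Nd4l and 97.99% in mt-Nd3 occur in an annotated transcript outside the mitochondrial genome. In mt-Nd4 this share was 62.2% and in mt-Co1 51.1%, in mt-Nd2 8.19% and in mt-Nd5 7.61%. It was 0% in mt-Nd1 and mt-Cytb, and also in mt-Nd6 and mt-Atp8, whose levels were low as well. The copies on chromosome 1 had between 0.0 and 7.8 FPM in any library, with Gm28437, the copy of mt-Co3, highest. Gm28438 had 2.2 to 3.6 FPM and was above mt-Nd3, with 1.0 to 1.7 FPM, in every library, and Gm10222 had a mean of 0.333 FPM, against 0.0667 for mt-Nd4l. The other 5 copies on chromosome 1 had less than their message. Further copies lie on chromosome 2. Gm13340 aligned over all 1545 bases of mt-Co1 with 37 substitutions, shared 27.5% of its stretches of 50 bases and had 4.6 to 7.0 FPM. Gm13341 shared 35.3% of the stretches of mt-Co2, and Gm13339 the 8.19% of mt-Nd2. The sources used here do not say how fragments that map to several places were counted, and the part of these copies in the low values was not tested. The levels of the 6 messages inside the run, and of mt-Co1 and mt-Nd4 across its ends, are therefore uncertain.

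The 2 rRNAs were listed at 0 in every library. mt-Rnr1 and mt-Rnr2, the RNAs of the small and large mitochondrial ribosome subunits, and the tRNA genes mt-Tf, mt-Tv and mt-Tl1 beside them form an unbroken run of 5 genes listed at 0, from base 1 to base 2750. The next gene, mt-Nd1, begins at base 2751. The depletion kit named in the labels is of a type that also targets mitochondrial rRNA, but its part in these zeros was not tested. No comparison was possible for these rows.

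Of the 22 tRNAs, 10 were listed at 0 in all 6 libraries, another 9 had a mean below 1, with a highest value of 1.3 for mt-Tt in KO 1, and 3 reached a mean of 1. These 3 were mt-Tq, mt-Tw and mt-Tp, which carry glutamine, tryptophan and proline. The 5 tRNA genes inside the stretch copied on chromosome 1 had means of at most 0.0167. This was not particular to the stretch. The 17 outside it had means from 0 to 3.13, and mt-Tf, mt-Tv, mt-Tl1, mt-Tn, mt-Tc, mt-Ts2 and mt-Tl2 among them also had at most 0.0167. Mature tRNAs are short and folded, and fragments counted at tRNA genes may equally come from precursors that span them, which the values per gene do not separate.

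The 3 measured tRNAs are shown whole because 2 of them overlap a neighbour in the bases written as capitals: mt-Tq (chrM:3772-3842, minus strand) overlaps mt-Ti on the opposite strand, and mt-Tw (chrM:4950-5016, plus strand) overlaps the end of mt-Nd2. mt-Tp (chrM:15356-15422, minus strand) overlaps none.
mt-Tq: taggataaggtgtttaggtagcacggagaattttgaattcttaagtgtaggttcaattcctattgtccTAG
mt-Tw: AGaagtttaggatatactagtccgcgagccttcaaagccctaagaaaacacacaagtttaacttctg
mt-Tp: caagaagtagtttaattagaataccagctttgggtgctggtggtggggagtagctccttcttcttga
Larger overlaps join the messages mt-Atp8 and mt-Atp6, with 43 bases on the same strand, and the ends of mt-Nd5 and mt-Nd6, with 14 bases on opposite strands. The last 60 bases of both mt-Nd5 (chrM:13506-13565, plus strand) and mt-Nd6 (chrM:13552-13611, minus strand) are given with this overlap in capitals, where fragments can be told apart only by strand.
mt-Nd5: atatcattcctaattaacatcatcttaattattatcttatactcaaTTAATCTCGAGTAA
mt-Nd6: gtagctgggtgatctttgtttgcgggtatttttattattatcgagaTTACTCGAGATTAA

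In the comparison of KO with WT, which asks whether these RNAs differ in amount between the genotypes, no mitochondrial gene passed the test. Genes with a mean of at least 1 were tested on log2(value + 0.5) with limma over all 14944 such genes, with library series as a term, and 14 of the 37 members passed this filter: 11 messages, 3 tRNAs and 0 rRNAs. Limma called 0 of the 14 at an adjusted p below 0.05 and 0 at an unadjusted p below 0.05. The background over all genes was 0% called higher and 0% called lower, with 37 genes (0.248%) at an unadjusted p below 0.05. Prmt5, lower in KO without overlap, was thus not called either. A fit that called no gene at all cannot show that the members are equal between the genotypes. The KO and WT values overlapped for all 14, where 1.79% of all genes tested were lower and 1.09% higher in KO without overlap.

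The changes of the members were small and mostly below 0. Of the 11 tested messages, 9 had a negative log2 change (KO minus WT), with a median of -0.15, where the median over all genes tested was 0.01 and 45.6% of them were negative. The median of the messages was -0.09 without WT 1, -0.24 without WT 2, -0.30 with no series term, and -0.37 with spike-in scaling, which put the median of all genes at -0.20. Of the 11, 10 were negative with spike-in scaling and 8 or 9 under the other scalings. Without WT 4, which put the median of all genes at 0.12, 7 were negative. For the 6 messages with a mean of at least 100, where the added 0.5 changes little, the 95% intervals lay within -0.58 to 0.25. The 6 members with a negative change within both library series were mt-Nd1, mt-Nd2, mt-Nd4, mt-Nd5, mt-Cytb and mt-Atp6. Of the others, mt-Nd3 was positive in both, and 7 changed sign between the series. An interaction between genotype and series was called for 0 of 14 members and for 0 genes in all (limma, smallest adjusted p = 0.678), with 0 members and 369 genes at an unadjusted p below 0.05. Each series holds 1 genotype as a single library, KO 1 or WT 4, assumed to vary like the others, so this count says little about whether the series differ.

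Among the complex I messages outside the copied stretch, mt-Nd5 (ENSMUSG00000064367.1, chrM:11742-13565) had the smallest p. It measured 246.7, 193.3 and 197.3 in KO 1, KO 4 and KO 5, against 346.9, 272.2 and 220.5 in WT 1, WT 2 and WT 4. WT 1 was the highest and the KO libraries of series 24 the lowest, but KO 1 lay above WT 4, so that the groups overlapped. The log2 change was -0.25 (SE 0.128, 95% interval -0.54 to 0.05, limma adjusted p = 1, and 0.663 to 1 over the alternatives), at -0.32 within series 22 and -0.17 within series 24. Without WT 1 it was -0.16.

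mt-Nd1, the membrane subunit of complex I where its peripheral arm joins, measured 815.4, 630.1 and 580.7 in KO 1, KO 4 and KO 5, against 1003.2, 848.5 and 694.6 in WT 1, WT 2 and WT 4. Within each series every KO library lay below every WT library, while KO 1 exceeded WT 4. Its log2 change of -0.19 (SE 0.115, 95% interval -0.45 to 0.08, limma adjusted p = 1) was -0.18 in series 22 and -0.20 in series 24. mt-Nd2, a proton-pumping subunit, measured 164.4, 119.5 and 114.5 in the same KO libraries, against 240.1, 169.8 and 130.6 in the WT libraries, with a log2 change of -0.23 (SE 0.151). mt-Nd4, a further pumping subunit, measured 270.1, 203.8 and 201.1 in the KO libraries, against 340.0, 267.2 and 227.8 in the WT libraries, with a log2 change of -0.16 (SE 0.125). All 3 showed the pattern of mt-Nd5, with WT 1 on top and the KO libraries of series 24 at the bottom. Without WT 1 the changes were -0.14 for mt-Nd1, -0.11 for mt-Nd2 and -0.09 for mt-Nd4.

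mt-Cytb, the one mitochondrial subunit of complex III, measured 840.2, 671.8 and 627.3 in KO 1, KO 4 and KO 5, against 1042.7, 848.2 and 716.8 in WT 1, WT 2 and WT 4. As with mt-Nd1, the KO libraries lay below the WT libraries of their own series. The log2 change was -0.15 (SE 0.120, 95% interval -0.43 to 0.13, limma adjusted p = 1), with -0.16 and -0.14 in series 22 and 24, and -0.09 without WT 1.

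The messages of complex IV had changes nearer to 0. mt-Co1 measured 8559.5, 7448.7 and 6600.0 in KO 1, KO 4 and KO 5, against 8014.5, 8048.1 and 7684.7 in WT 1, WT 2 and WT 4. The KO libraries held both its highest and its lowest value, at a mean of 7536 ± 983 in KO, and the WT libraries lay closer together, at 7916 ± 201 (SD, n = 3 each). The log2 change was -0.02 (SE 0.117), and it turned to 0.01 under total-sum scaling, to 0.03 without KO 5 and to 0.09 without WT 4. mt-Co2 measured 10.9, 8.9 and 7.8 in the KO libraries, against 9.4, 9.9 and 9.0 in the WT libraries, with a log2 change of 0.03 (SE 0.146) that turned to -0.18 with scaling to the spike-in RNAs and to -0.105 without KO 1. mt-Co3 measured 25.5, 22.4 and 20.7 in the KO libraries, against 25.8, 24.6 and 23.8 in the WT libraries, with a log2 change of -0.06 (SE 0.119), or 0.02 without WT 4. In all 3 messages KO 5 was the lowest library, and KO 1 was the highest for mt-Co1 and mt-Co2.

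**Figure D2:**
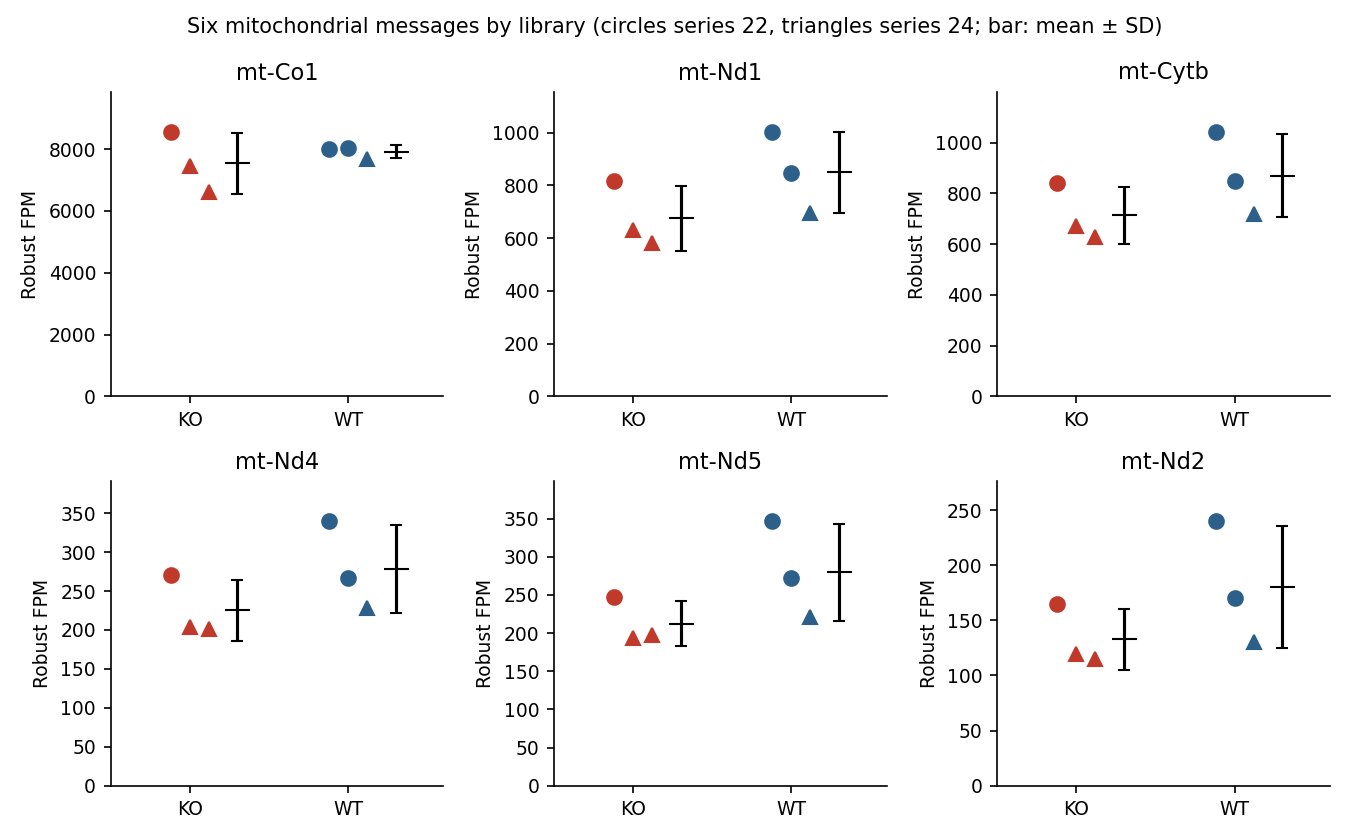
Robust FPM of the 6 messages of highest level in each library, KO left of WT, with circles for series 22, triangles for series 24 and a bar for the mean ± SD of the 3 libraries. For mt-Nd1, mt-Cytb, mt-Nd4, mt-Nd5 and mt-Nd2, WT 1 is the highest point and the 2 KO libraries of series 24 are the lowest, while mt-Co1 is highest in KO 1.

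The remaining messages had low values. mt-Atp6 measured 6.1, 4.3 and 3.9 in KO 1, KO 4 and KO 5, against 6.6, 5.9 and 5.4 in WT 1, WT 2 and WT 4, with a log2 change of -0.20 (SE 0.173), or -0.03 without WT 4 and -0.36 without KO 1. mt-Nd3, a small complex I subunit, measured 1.7, 1.3 and 1.6 in the KO libraries, against 1.0, 1.2 and 1.4 in the WT libraries, with a log2 change of 0.25 (SE 0.320), or 0.03 without KO 1 and 0.46 without WT 4. It was the 1 tested message whose lowest value was in WT 1. The filter removed mt-Atp8, which measured 1.1, 0.4 and 0.5 in the KO libraries, against 0.4, 0.4 and 0.3 in the WT libraries, and mt-Nd4l, which lay between 0.0 and 0.1 in all 6. No test is given for these last messages, and rounding to 1 decimal leaves few steps between their values.

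**Figure D3:**
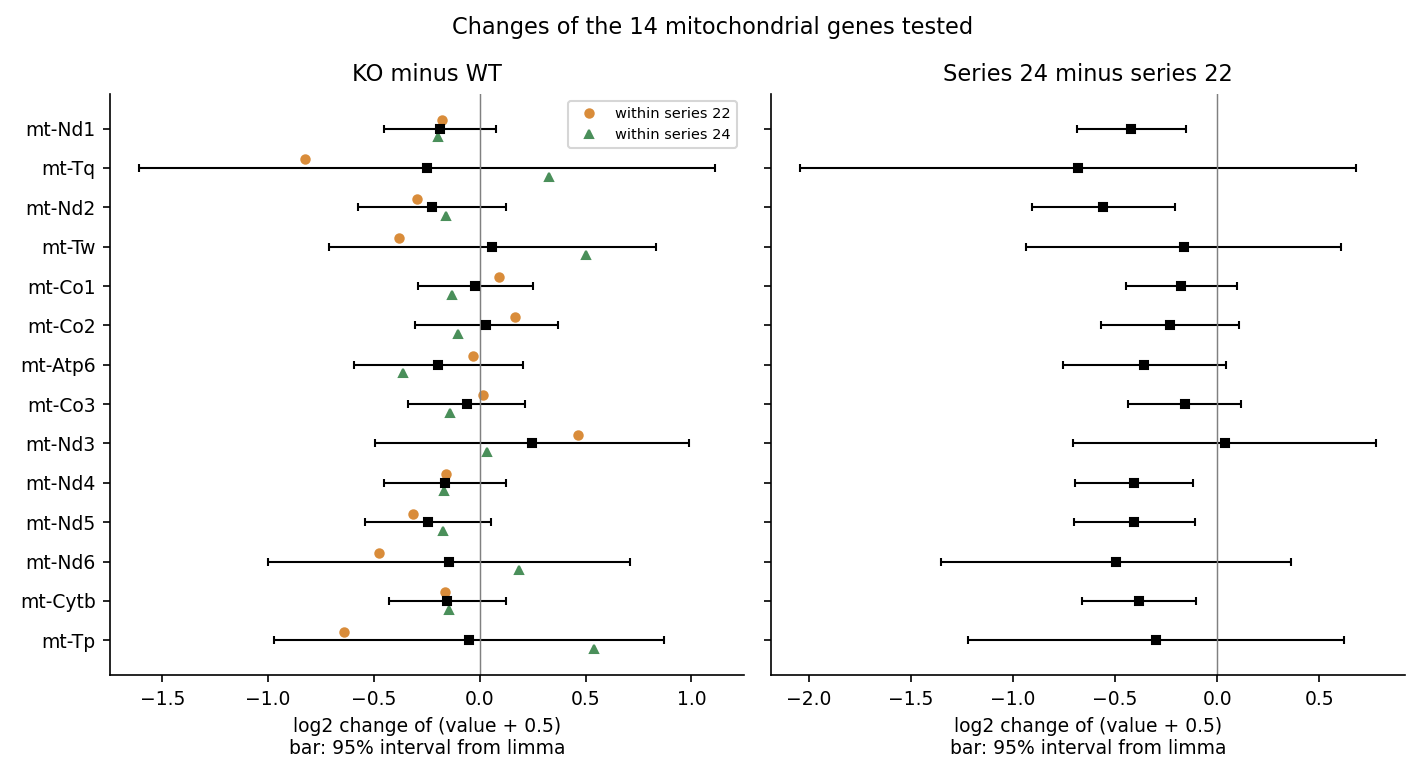
log2 changes of the 14 tested members with 95% intervals from limma, for KO minus WT (left, with the changes within each series) and for series 24 minus series 22 (right). All 14 intervals include 0 on the left. On the right 13 of 14 estimates are negative, and the intervals of mt-Nd1, mt-Nd2, mt-Nd4, mt-Nd5 and mt-Cytb lie below 0 before adjustment for the number of genes tested.

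Genes on the minus strand had low values. The libraries were stranded, but the sources used here do not say whether counting used strand. The part of plus-strand RNA from opposite these genes in their values was not tested. mt-Nd6 (ENSMUSG00000064368.1, chrM:13552-14070), the one minus-strand message and a complex I subunit, measured 9.7, 11.7 and 6.3 in KO 1, KO 4 and KO 5, against 21.2, 8.8 and 7.5 in WT 1, WT 2 and WT 4. WT 1 held more than any other library and KO 4 came second, whereas KO 4 was low for the plus-strand messages of complex I. The log2 change between the genotypes was -0.15 (SE 0.369, limma adjusted p = 1), and it turned to 0.16 without WT 1 and to 0.19 without KO 1.

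Of the minus-strand tRNAs, the 2 that passed the filter had the same order at the top as mt-Nd6. mt-Tq measured 2.2, 3.7 and 1.0 in KO 1, KO 4 and KO 5, against 8.3, 2.1 and 1.5 in WT 1, WT 2 and WT 4. mt-Tp measured 1.4, 2.2 and 1.5 in the KO libraries, against 3.5, 1.7 and 1.1 in the WT libraries. In both, WT 1 was highest and KO 4 second. Of the 9 minus-strand members, 8 were above 0 in some library, and all 8 had their highest value in WT 1, mt-Tc and mt-Ts1 with 0.1 there and 0 elsewhere. Of the 11 tested plus-strand members, 8 were highest in WT 1 too. The log2 changes were -0.25 (SE 0.588) for mt-Tq and -0.05 (SE 0.398) for mt-Tp, and they turned to 0.21 and 0.22 without WT 1, and to 0.33 and 0.54 without KO 1. The plus-strand mt-Tw measured 1.6, 1.9 and 2.2 in the KO libraries, against 2.9, 1.7 and 1.3 in the WT libraries, with a log2 change of 0.06 (SE 0.333) that turned to -0.12 with scaling to the spike-in RNAs, to -0.04 without KO 5, to -0.01 without WT 2 and to -0.38 without WT 4.

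A ratio within a library does not depend on how libraries are scaled. Per 1000 FPM at plus-strand members, the minus-strand members held 1.27, 1.96 and 1.10 FPM in KO 1, KO 4 and KO 5, against 3.20, 1.30 and 1.09 in WT 1, WT 2 and WT 4. The mean was 1.44 ± 0.453 in KO and 1.86 ± 1.16 in WT (SD, n = 3 each), so that the difference was smaller than the spread. WT 1, which had the highest ratio, also had the highest value per kb at the receptor genes that T cells are not expected to transcribe. These background values were 0.0345, 0.0809 and 0.0254 FPM per kb in KO 1, KO 4 and KO 5, against 0.301, 0.0847 and 0.0144 in WT 1, WT 2 and WT 4. WT 2, with a background like that of KO 4, had a lower ratio. The parts of this background and of RNA from the opposite strand in the minus-strand values were not tested.

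**Figure D4:**
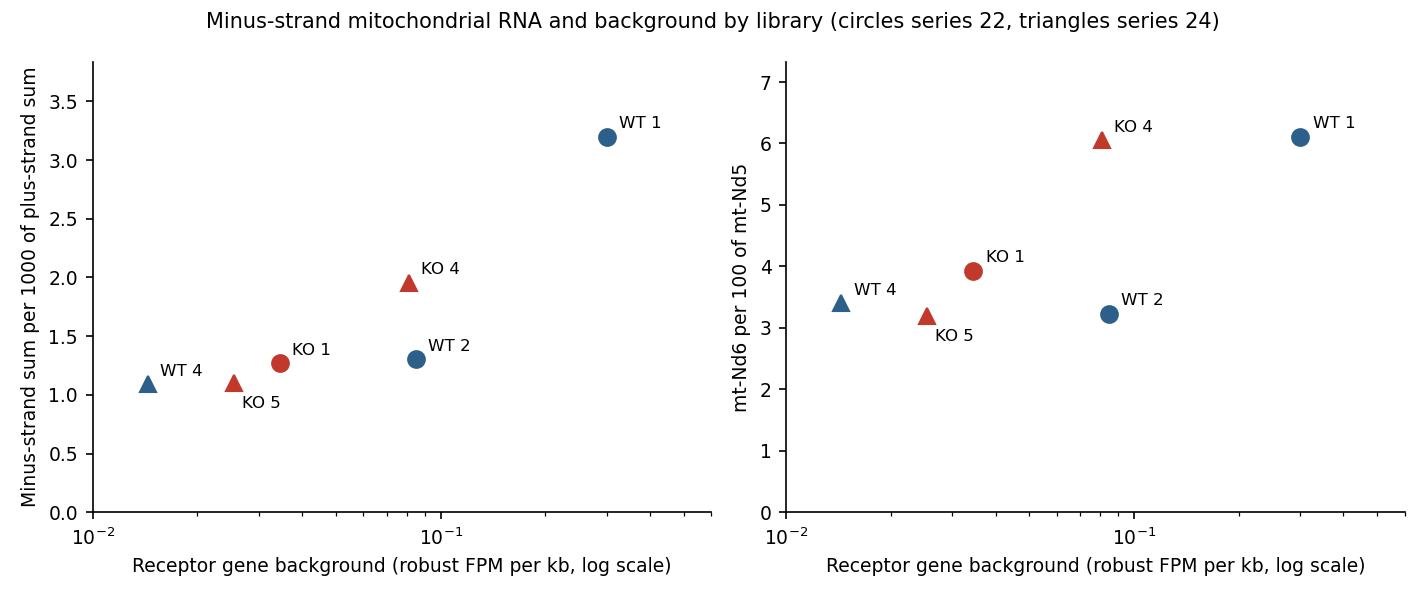
For each library, the summed minus-strand value per 1000 of the plus-strand sum (left) and mt-Nd6 per 100 of mt-Nd5 (right), against robust FPM per kb at 1428 olfactory and vomeronasal receptor genes (log axis), with red for KO, blue for WT, circles for series 22 and triangles for series 24. WT 1 is highest on both axes of the left panel, at 3.20 and 0.301, and KO 4 and WT 1 are at like heights on the right, at 6.05 and 6.11.

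mt-Nd6 was set against mt-Nd5, its neighbour on the other strand. It measured 3.93, 6.05 and 3.19 per 100 of mt-Nd5 in KO 1, KO 4 and KO 5, against 6.11, 3.23 and 3.40 in WT 1, WT 2 and WT 4. One library of each group thus held more than 6 per 100 and the other 4 held less than 4, and the means were 4.39 ± 1.48 in KO and 4.25 ± 1.62 in WT (SD, n = 3 each).

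Ratios between plus-strand messages varied from library to library. mt-Nd1 measured 9.53, 8.46 and 8.80 per 100 of mt-Co1 in KO 1, KO 4 and KO 5, against 12.5, 10.5 and 9.04 in WT 1, WT 2 and WT 4. mt-Nd5 measured 2.88, 2.60 and 2.99 per 100 of mt-Co1 in the KO libraries, against 4.33, 3.38 and 2.87 in the WT libraries. In both, WT 1 and WT 2 were the highest libraries, and for mt-Nd1 each KO library lay below the WT libraries of its series, which for mt-Nd5 did not hold in series 24. mt-Cytb, mt-Nd2 and mt-Nd4 were likewise highest in WT 1, at 13.01, 2.996 and 4.24 per 100 of mt-Co1, and lowest in KO 4, at 9.02, 1.604 and 2.74. By contrast mt-Nd1 per 100 of mt-Cytb stayed between 92.6 and 100.04 in all libraries. mt-Co1 alone made up 78.1% to 79.9% of all mitochondrial values in the KO libraries, against 72.4% to 79.0% in the WT libraries. Ratios to mt-Co1, of which 51.1% recurs elsewhere, share the uncertainty of its level.

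**Figure D5:**
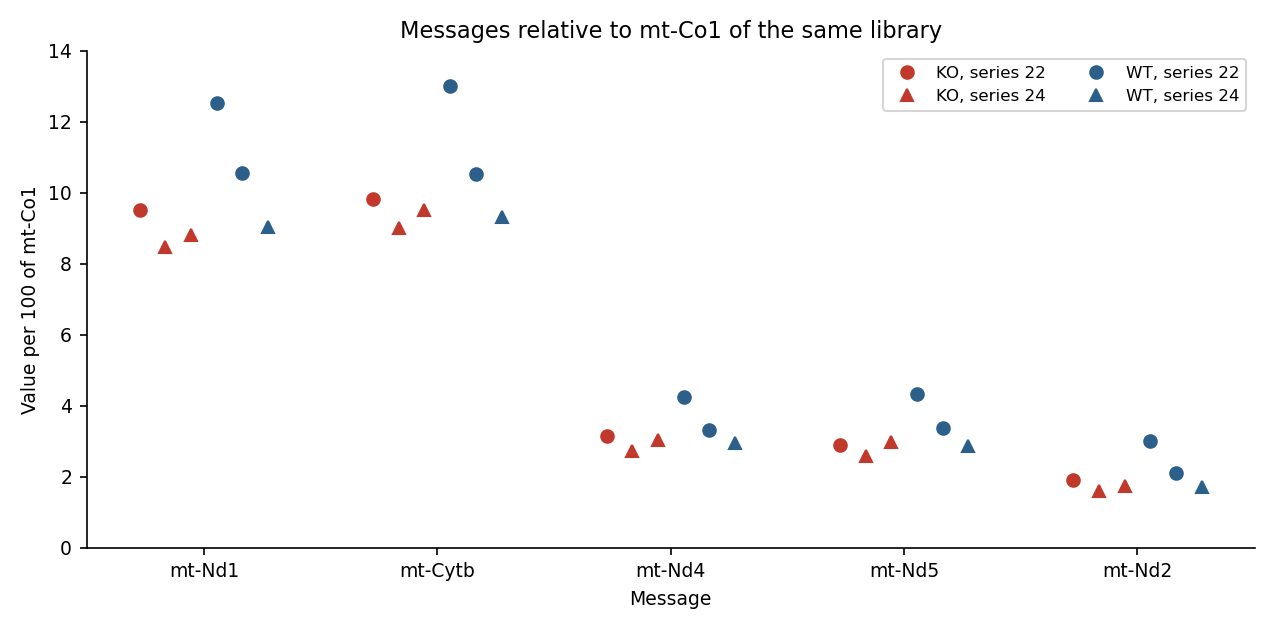
Value of 5 messages per 100 of mt-Co1 of the same library; within each message the points are, left to right, KO 1, KO 4, KO 5, WT 1, WT 2 and WT 4, with circles for series 22 and triangles for series 24. WT 1 is the highest and KO 4 the lowest point for each message, from 12.5 and 8.46 for mt-Nd1 to 2.996 and 1.604 for mt-Nd2.

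The summed messages differed little between the genotypes. They came to 10951, 9316 and 8362 FPM in KO 1, KO 4 and KO 5, against 11052, 10505 and 9723 in WT 1, WT 2 and WT 4. Within each series a WT library was highest, and in series 22 KO 1 lay between WT 1 and WT 2. The log2 change of the sum was -0.06. It was -0.13 with no series term and -0.28 with spike-in scaling, and it turned to 0.02 without WT 4. Most of the sum is mt-Co1. Without mt-Co1 the messages came to 2007 ± 337 FPM in KO and 2511 ± 502 in WT (SD, n = 3 each). By series they came to 1889 ± 139 in series 24 and 2629 ± 355 in series 22 (SD, n = 3 each). The share of all gene values that fell on mitochondrial genes was 1.08% ± 0.112 in KO and 1.14% ± 0.0668 in WT (SD, n = 3 each), a difference below the spread. Counted by series it was 1.03% ± 0.0504 in series 24 and 1.19% ± 0.0218 in series 22 (SD, n = 3 each).

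Between the series, 13 of the 14 tested members had a negative log2 change (24 minus 22, with genotype as a term), and 9 were lower in each library of series 24 than in any of series 22, where 6.14% of all genes were lower and 14.3% higher without overlap. These 9 were mt-Nd1, mt-Nd2, mt-Co1, mt-Co2, mt-Atp6, mt-Co3, mt-Nd4, mt-Nd5 and mt-Cytb. Limma called 0 of the 14 at an adjusted p below 0.05, against 0.134% of all genes called lower and 0.00669% called higher. These 21 calls over all genes became 111 without WT 1, 44 without KO 4, 8 without KO 5, 7 without WT 2, and 0 without either KO 1 or WT 4, with 0 members called each time. At an unadjusted p below 0.05 there were 5 members, all lower, and 8.81% of all genes. The changes with the smallest p were those of mt-Nd2, at -0.56 (SE 0.151, limma adjusted p = 0.363, and 0.157 to 1 over the alternatives), and mt-Nd1, at -0.42 (SE 0.115, limma adjusted p = 0.363, and 0.201 to 1 over the alternatives). mt-Nd4 and mt-Nd5 were both at -0.41, and mt-Cytb was at -0.38. The code may stand for any difference in collection, extraction or sequencing, which cannot be told apart here.

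The summed markers of myeloid cells were higher in series 24, at 774 ± 304, against 296 ± 140 in series 22 (SD, n = 3 each). By genotype they came to 689 ± 364 in KO and 381 ± 282 in WT (SD, n = 3 each). Within series 22, KO 1 exceeded WT 1 and WT 2, and within series 24, WT 4 lay between KO 4 and KO 5. The sum of the 8 markers, Lyz2, Csf1r and the complement genes C1qa, C1qb and C1qc among them, was 446.9, 512.9 and 1108 in KO 1, KO 4 and KO 5, against 171.3, 269.3 and 701.2 in WT 1, WT 2 and WT 4. KO 5, the library with the highest sum, had the lowest value for 10 of the 14 tested mitochondrial genes, and WT 1, with the lowest sum, the highest value for 11. All 8 myeloid markers were above 0 in every library. Lyz2 alone measured 66.5, 128.3 and 482.5 in KO 1, KO 4 and KO 5, against 19.0, 23.6 and 204.2 in WT 1, WT 2 and WT 4. Single markers did not all separate the series: C1qa, C1qb, Csf1r and Cd68 were higher in KO 1 of series 22 than in KO 4 of series 24. Lyz2, C1qc, Adgre1 and Itgam were lower in KO 1 than in KO 4. Sums of B cell markers (22.8 to 34.6) and of CD8 T and NK cell markers (76.0 to 104.6) were low beside those of CD4 T cells, and the globin genes Hbb-bs and Hba-a1 were listed at 0. The part of other cells in the mitochondrial values was not tested, and in whole samples fewer cells of a type and less RNA per cell cannot be told apart.

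Nuclear genes that serve the same system gave no called member either, in lists chosen with earlier results of these data known. For transcription and upkeep of mitochondrial DNA, limma called 0 of 19 tested genes in either direction (KO minus WT), with a median log2 change of 0.06. Mgme1, a nuclease of mitochondrial DNA, and Twnk, the replicative helicase, had the smallest p, at 0.20 and 0.16. For processing and decay of mitochondrial RNA it called 0 of 34, with a median of 0.04. There Mrm1, which methylates the large rRNA, was at 0.26, and Ptcd1, a protein that binds mitochondrial RNA, at 0.20. Of 8 tested factors of mitochondrial biogenesis 0 were called, at a median of -0.03, with the coactivator Ppargc1b at -0.33 and the transcription factor Yy1 at 0.08.

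The larger lists had positive medians under the deposited scaling. Of 77 tested genes of the mitochondrial ribosome limma called 0, and 16 had a negative change, with a median of 0.08. Mrpl2 was at 0.30 and Mrpl16 at 0.22. Of 86 tested nuclear subunits and assembly factors of the respiratory chain limma called 0, and 7 had a negative change, with a median of 0.13. Here Ndufaf2, an assembly factor of complex I, was at 0.32, and Atp5b, a catalytic subunit of ATP synthase, at 0.21. Of 17 tested mitochondrial tRNA synthetases 0 were called, at a median of 0.00, with Vars2 at 0.24 and Sars2 at 0.21.

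The signs of these medians depended on series and scaling. Within series 22 the median of the ribosome list was 0.25 and that of the respiratory chain list 0.37, and within series 24 they were -0.10 and -0.11. The series 22 values set KO 1 alone against WT 1 and WT 2, and those of series 24 rest on WT 4 alone for WT. WT 1 was the lowest library for Mrpl2, Mrpl16 and Atp5b, at 15.8, 7.1 and 392.7, whereas Ndufaf2 was lowest in WT 4. The medians of the lists without WT 1 were not computed. With scaling to the spike-in RNAs, which moved the median of all genes to -0.20, all 6 lists had negative medians, between -0.25 and -0.09, and the messages stood at -0.37. The biogenesis list turned to 0.003 under total-sum scaling, and the synthetase list to -0.01 under median-of-ratios scaling. The messages had a lower median than the respiratory chain list under the deposited scaling, the 2 total-sum scalings, the median-of-ratios scaling and the spike-in scaling, at -0.37 to -0.12, where the respiratory chain list had -0.09 to 0.16. By series, the median of the messages was -0.16 within series 22, against 0.37 for the respiratory chain list, and -0.14 within series 24, against -0.11, so that the gap lay almost wholly in series 22. The difference between the 2 sets was not tested.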

How the data were processed

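Per the labels, stranded libraries were made from total RNA after removal of rRNA. Per the submitters' processing notes, STAR, featureCounts, DESeq2 and DESeq were used on GRCm38.p3, without version or role. The values deposited by the authors are robust FPM, an RPM-like unit normalized by robust size factors and rounded to 1 decimal, so that no count model was used. Of 54624 rows, 92 belong to ERCC spike-in RNAs and stayed out of the tests. The table has 6 further columns that matched no sample and were not used. Symbols and coordinates were looked up by identifier in GENCODE M21 (GRCm38), which gave a symbol for 54409 gene rows.

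For genes with a mean of at least 1, log2(value + 0.5), which understates changes of low genes, was fitted with limma 3.58.1 (R 4.3.3, trend on), with library series and genotype as terms. Tests were two-sided, with Benjamini-Hochberg adjustment over 14944 genes. The p-values set each change against the spread between libraries that is left after series and genotype. Whether each library came from a separate mouse is not stated. The fit was tested on simulated data. Levels per kb use the annotated length. Nuclear copies were sought as exact stretches of 50 bases in annotated transcripts, on both strands, or of 100 bases, lengths chosen after seeing the data. The genome itself was not used here. The rule named all messages and rRNAs, the tRNAs that passed the filter, and the 2 members of smallest p in each nuclear list. Members and lists were chosen with earlier results of these data known. Plots were made in matplotlib 3.10.9 (Python 3.11.15).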

Additional observations from a re-analysis of the deposited data

How the results depend on the processing

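No mitochondrial gene was called in either comparison under any alternative run: pseudocounts of 0.1 and 1, no filter or a mean of at least 5, no library series term (KO against WT), the receptor gene background as a covariate (KO against WT), total-sum scaling with and without the mitochondrial rows, median-of-ratios and spike-in (ERCC) scaling, no trend, and leaving out each library. Replicate numbers 1 and 4 occur in both groups, and the libraries that share a number also share a library series. The deviations of same-numbered libraries from their group means had correlations of -0.16 and -0.41 over 14944 genes. These values cannot show whether the libraries were paired, because the groups hold unequal mixes of the series. With the replicate block limma called 5 of all genes (main 0) and 0 members. In that fit mt-Tw stood at -0.14 and mt-Co1 at 0.025 (log2, KO minus WT). The background covariate gave 1 call over all genes. The 21 calls between series became 54 with the higher filter, 58 with median-of-ratios scaling, 11 with spike-in scaling and 0 with no trend. Signs turned for members with changes near 0 or wide intervals, and the cause was not tested. With the background covariate mt-Tq stood at 0.23, mt-Nd6 at 0.16, mt-Tp at 0.25 and mt-Co2 at -0.0382. With no series term mt-Co2 was at -0.0457. Total-sum scaling gave 0.0117 and 0.0114 for mt-Co1 with and without the mitochondrial rows. Spike-in scaling gave -0.12 for mt-Tw, -0.18 for mt-Co2 and -0.28 for the summed messages (main -0.06), and median-of-ratios scaling gave -0.0128 for mt-Nd3 between series. Leaving out 1 library, the change between KO and WT ranged from -0.825 to 0.33 for mt-Tq, -0.38 to 0.50 for mt-Tw, -0.132 to 0.0919 for mt-Co1, -0.105 to 0.168 for mt-Co2, -0.141 to 0.0171 for mt-Co3, -0.48 to 0.19 for mt-Nd6 and -0.64 to 0.54 for mt-Tp. Between series 24 and 22 it ranged from -0.60 to 0.28 for mt-Tw, -0.18 to 0.25 for mt-Nd3 and -0.89 to 0.29 for mt-Tp. The median of the messages stayed between -0.37 with spike-in scaling and -0.09 without WT 1. With stretches of 100 bases the shared part of mt-Co1 was 30.8%, against 51.1% with 50 bases, and that of mt-Nd4 60.8%, against 62.2%. Values are rounded to 1 decimal and depth is unknown, so the rows below a mean of 1 bear no comparison.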
